A study of Mus musculus with 4 samples.

Results

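The Hedgehog pathway genes described here are 9 receptors, transcription factors and feedback regulators (Gli1, Gli2, Gli3, Ptch1, Hhip, Smo, Sufu, Boc and Gas1). Every probe set that the platform annotation assigns to one of these symbols was taken, which gave 25 of the 45101 probe sets in the deposited table. RNA came from basal interfollicular cells of mouse tail epidermis and was read on Affymetrix 3' arrays. The sort kept cells with integrin alpha 6 on their surface, which basal keratinocytes carry, and without CD34, which marks stem cells of the hair follicle bulge. Of the 4 arrays, 2 came from K14CreER:SmoM2 mice (the SmoM2 group, Sox9 intact) and 2 from K14CreER:SmoM2:Sox9cKO mice (the Sox9cKO group, Sox9 conditionally deleted), all taken 9 weeks after the first of 10 daily doses of 2.5 mg tamoxifen. K14CreER is a Cre recombinase that tamoxifen switches on in cells with an active keratin 14 promoter, and SmoM2 is an always-active form of Smoothened. Both groups carried SmoM2, so the arrays compare pathway genes with and without Sox9 under the same oncogene and give no level for normal epidermis. The labels state neither the age and strain of the mice nor how many gave each array, so p-values cover only the spread between arrays, which may be partly technical.

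In Hedgehog signalling the receptor Ptch1 holds the membrane protein Smo inactive until a ligand binds, and active Smo then releases Gli transcription factors from their inhibitor Sufu. Gli1, Ptch1 and Hhip are themselves switched on by Gli activity and are commonly read as the output of the pathway, Ptch1 and Hhip as negative feedback. In skin this pathway drives hair follicle growth, and its constant activity leads to basal cell carcinoma.

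The arrays were alike in their overall distribution, with median log2 signals of 5.45 to 5.48. Pearson's r was 0.991 within each group and 0.978 to 0.98 between groups, across probe sets, which are not independent replicates. Spiked labelling controls averaged 7.75 and 7.92 in replicate 1 of SmoM2 and Sox9cKO and 7.19 and 6.71 in replicate 2. They were thus lower in replicate 2 of both groups, by unequal amounts, and the cause was not tested. All 10 basal keratinocyte markers were above the median signal, among them Krt5 at 13.20 to 13.41, and none of them was called different. Even so, 8 of the 10 had a lower mean in Sox9cKO, with a median log2 change of -0.27 beside 0.021 over all genes. Cd34, by which the sort left cells out, read 3.75 to 4.15, but 8 of 10 bulge markers were above the median, among them Postn at 12.01 to 12.69, Krt15 at 11.38 to 12.14 and Lgr5 at 9.20 to 9.53. All 10 suprabasal keratinocyte markers were above it too, so marker levels do not separate the sorted cells from these classes. The deleted gene was read at its 3 probe sets. Sox9 at 1451538_at measured 10.21 and 10.02 in SmoM2 and 6.75 and 5.70 in Sox9cKO, and fell by 3.89 on the log2 scale (SE 0.31, limma, adjusted p = 0.00171). The other Sox9 probe sets did not pass, with log2 changes of -0.75 at 1424950_at (adjusted p = 0.148) and -0.41 at 1433889_at (adjusted p = 0.309). The labels do not say where these probes lie relative to the deleted part of the gene.

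Without Sox9, 1 of the 4 probe sets of the feedback gene Hhip was called lower. No probe set of Gli1, Ptch1 or any other member passed the test. Of the 25 probe sets 1 (4%) was called lower and 0 higher (limma, Benjamini-Hochberg adjusted p under 0.05 over 45037 probe sets). Of all probe sets 3.82% were called in either direction, 2.34% lower and 1.48% higher. The share of member probe sets called was thus near that of all probe sets. At an unadjusted p under 0.05 there were 7 (4 of Hhip, 2 of Smo and 1 of Gas1), against 14.9% of all probe sets. In 19 of 25 probe sets the arrays of the groups did not overlap, 7 with Sox9cKO higher and 12 with Sox9cKO lower, against 44.4% of all probe sets in either direction, 22.6% higher and 21.8% lower. Probe sets of 1 gene share their transcript and are not independent. The median log2 change over the 25 was -0.17, beside 0.0084 over all probe sets tested. Of the 25, 4 had a mean signal below the median of all probe sets, 1 each of Gli3, Smo, Sufu and Boc, and small changes there are hard to see. The called Hhip probe set, 1438083_at, was only just above that median, at a mean of 5.473 against 5.465. Both of its Sox9cKO values, 3.91 and 4.91, lay below that median.

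**Figure D1:**
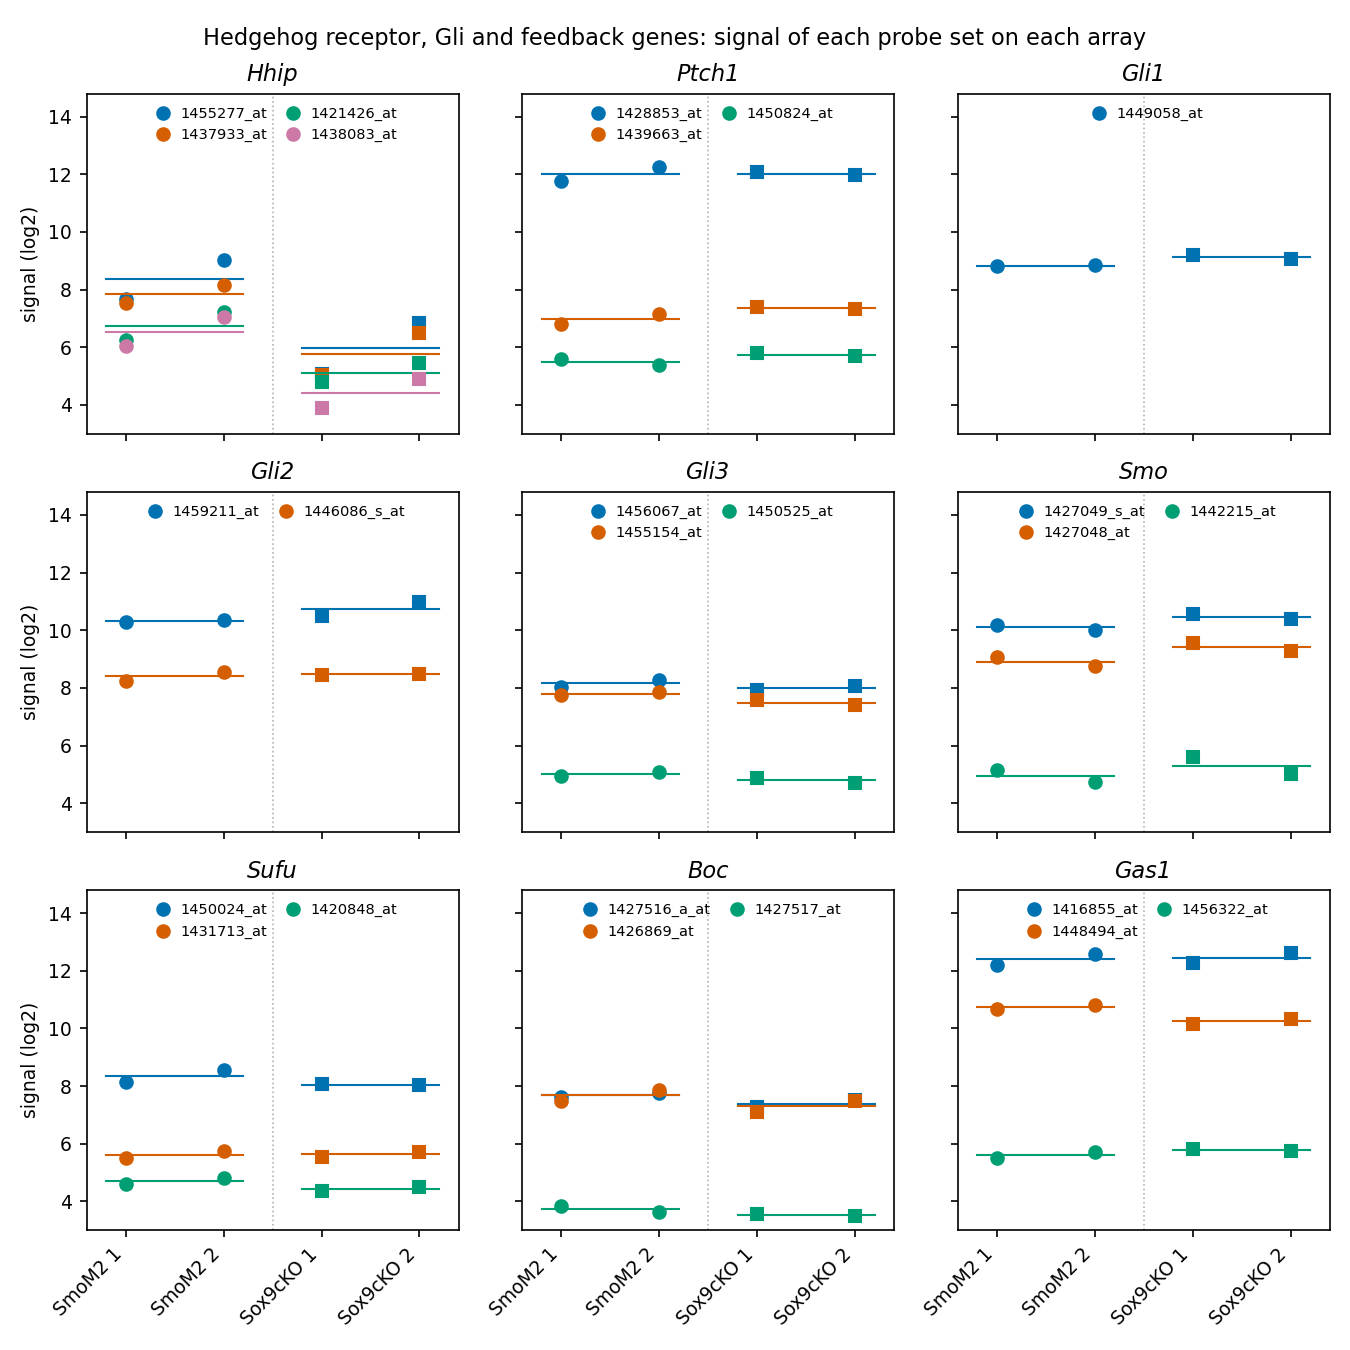
Signal (log2, vertical axis) of each probe set of the 9 genes on each of the 4 arrays (horizontal axis); circles are SmoM2 arrays, squares Sox9cKO arrays, colours probe sets, and horizontal lines the mean of each group of 2. All 4 probe sets of Hhip lie lower in both Sox9cKO arrays than in both SmoM2 arrays, whereas the Gli1 points stay between 8.80 and 9.19 and those of the brightest Ptch1 probe set between 11.77 and 12.26.

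Hhip encodes a membrane-bound protein that binds Hedgehog ligands and keeps them from Ptch1. The call was made at 1438083_at, which measured 6.04 and 7.04 in SmoM2 and 3.91 and 4.91 in Sox9cKO. Both Sox9cKO arrays were below both SmoM2 arrays, and replicate 2 was the higher one in each group. The signal fell by 2.13 on the log2 scale (SE 0.40, 95% interval -3.08 to -1.18, adjusted p = 0.0357), a 4.38-fold difference. In bulk RNA of sorted cells, fewer cells with a transcript and less transcript per cell cannot be told apart.

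The other probe sets of Hhip gave differences from -1.62 to -2.39, which did not pass the threshold. At 1455277_at, the brightest, the arrays read 7.69 and 9.03 in SmoM2 and 5.08 and 6.85 in Sox9cKO, which is a difference of -2.39 (SE 0.61, adjusted p = 0.0989). Here the spread within each group (SD 0.95 and 1.25) was wider than for any other member. At 1437933_at the signals were 7.55 and 8.15 against 5.04 and 6.50, a change of -2.08 (SE 0.44, adjusted p = 0.0560), and at 1421426_at they were 6.24 and 7.24 against 4.78 and 5.44, a change of -1.62 (SE 0.35, adjusted p = 0.0565). All 4 probe sets showed the same order of arrays, with SmoM2 replicate 2 highest and Sox9cKO replicate 1 lowest. The change at 1438083_at was -1.63 both without SmoM2 replicate 2 (adjusted p = 0.121) and without Sox9cKO replicate 1 (adjusted p = 0.115), and the call was also lost under a robust prior with an intensity trend (adjusted p = 0.0887) and with the mean of the 4 probe sets (change -2.06, adjusted p = 0.0578). Without Sox9cKO replicate 1 the changes at 1455277_at and 1437933_at were -1.504 and -1.35 (adjusted p = 0.262 and 0.0736), and without Sox9cKO replicate 2 they were -3.28 and -2.81 and passed the threshold (adjusted p = 0.0259 and 0.00688). The change was negative at every Hhip probe set under every alternative, from -1.12 to -3.28.

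Upstream sequences are shown for Hhip, the member with a called probe set, and Sufu, the one searched member with a match to a motif. RefSeq upstream windows (250 bases before the start, GRCm38.p6) matched 7 of the 9 genes, and Gli1 and Boc were not searched. They were searched on both strands for GACCACCCA, the sequence bound by Gli factors, for its part CCACCCA, for the Sox-type sequence AACAATGG and for its part AACAAT. None of the 7 held GACCACCCA, CCACCCA or AACAATGG, which occur in 0.225%, 8.11% and 0.901% of all 32851 windows, and 1 held AACAAT, found in 9.42% of them. Over the full windows of 250 bases, the GC content was 76% for Hhip and 54% for Sufu. For Hhip only the 198 bases outside the annotated gene are printed, chr8:80058061-80058258 on the minus strand, and for Sufu chr19:46396646-46396895 on the plus strand. Lower case is used throughout, and capitals in Sufu mark AACAAT.
Hhip: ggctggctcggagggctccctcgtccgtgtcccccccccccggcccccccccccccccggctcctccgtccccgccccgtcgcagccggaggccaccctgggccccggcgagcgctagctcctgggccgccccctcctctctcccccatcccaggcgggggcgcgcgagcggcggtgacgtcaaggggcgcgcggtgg
Sufu: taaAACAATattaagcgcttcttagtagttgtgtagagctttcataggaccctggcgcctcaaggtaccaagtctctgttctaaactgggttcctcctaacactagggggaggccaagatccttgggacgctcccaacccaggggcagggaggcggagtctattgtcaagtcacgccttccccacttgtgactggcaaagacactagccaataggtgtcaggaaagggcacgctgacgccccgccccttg
These matches describe letters in a short window. They show neither binding nor its absence, since no binding was measured here.

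In the main fit the intervals of Hhip did not overlap those of the other output genes, as the plot of changes with their intervals shows. They depend on the variance model. With an intensity trend and robust prior in limma, the SE at Hhip 1455277_at was 0.89 in place of 0.61 (adjusted p = 0.401). The mean Hhip change over its 4 probe sets differed by -2.35 from that of Gli1 and by -2.06 from that of the brightest Ptch1 probe set. Over the 8 other members, each read at its brightest probe set, this difference lay between -1.76 and -2.47. The exact permutation test (two-sided, chosen after the values were seen) gave p = 0.333 for each of the 8 (adjusted p = 0.333), the smallest value that 2 arrays against 2 allow, so this design cannot show by that test that Hhip responded differently.

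**Figure D2:**
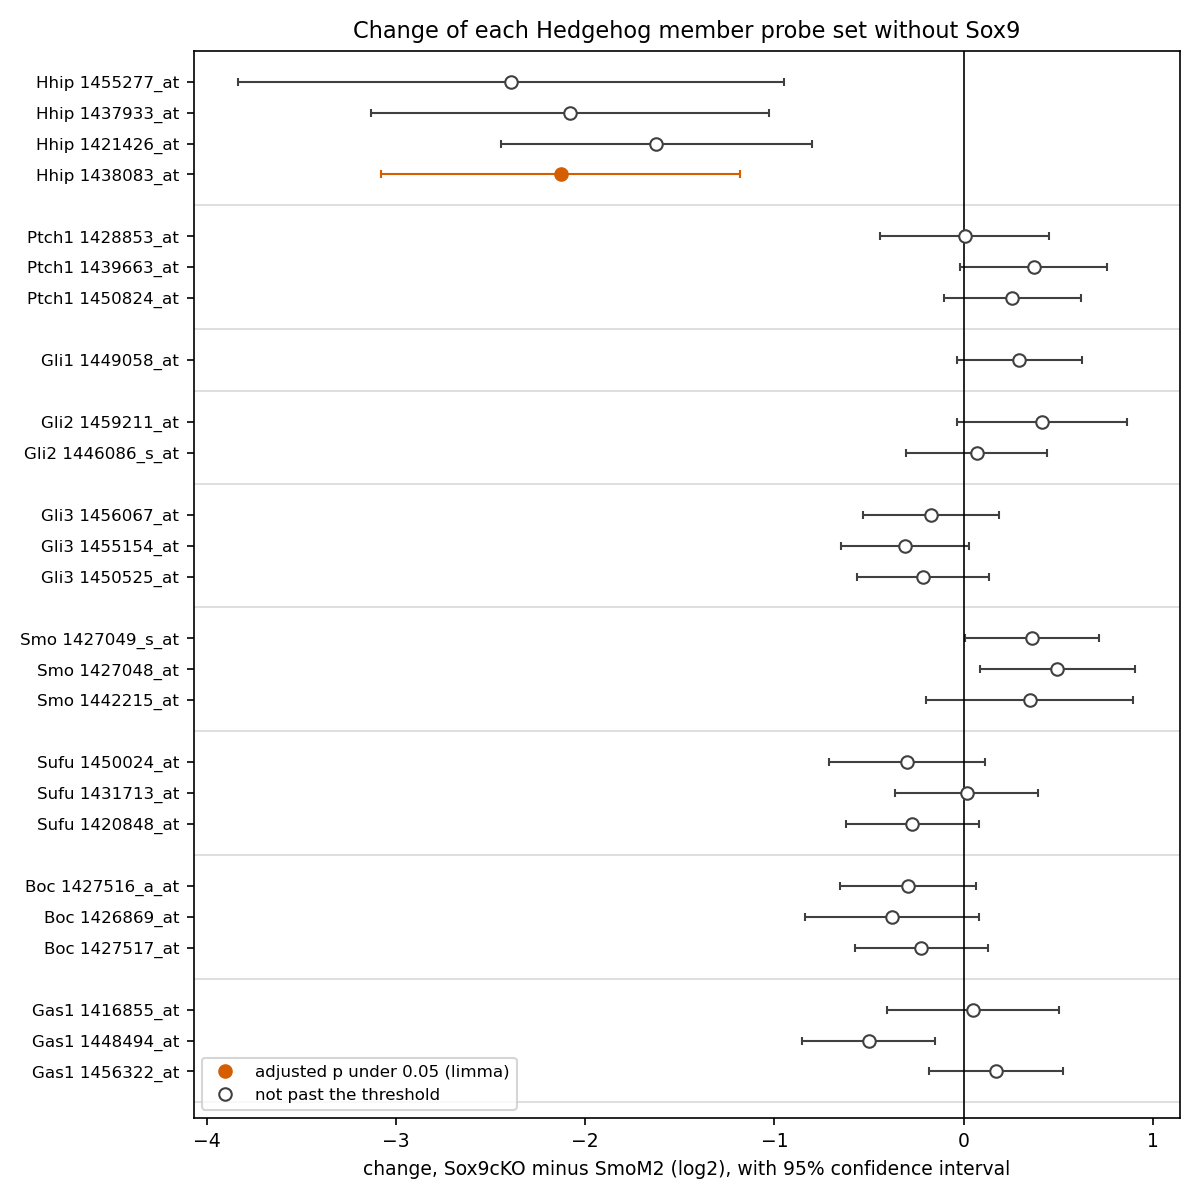
Change of each of the 25 probe sets (vertical axis, grouped by gene) as Sox9cKO minus SmoM2 on the log2 scale (horizontal axis), with the 95% interval from the limma fit, not adjusted for the number of tests. The filled point is the 1 probe set with an adjusted p under 0.05, Hhip 1438083_at at -2.13. The intervals of Gli1, of all Ptch1 and all Gli probe sets include 0. Those of every Hhip probe set, of Smo 1427049_s_at and 1427048_at and of Gas1 1448494_at leave out 0.

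Gli1, the Gli factor that depends most on pathway activity for its own transcription, was measured by 1 probe set. Its signal was 8.80 and 8.84 in SmoM2 and 9.19 and 9.05 in Sox9cKO. The Sox9cKO arrays were the higher ones, by 0.30 on the log2 scale (SE 0.14, adjusted p = 0.402), and the difference did not pass the test. In the main fit the 95% interval was -0.037 to 0.63, from a 1.03-fold decrease to a 1.54-fold increase. This interval is not adjusted for the number of tests and depends on the variance model. With an intensity trend and robust prior the SE was 0.153 in place of 0.140. With 1 array left out the change lay between 0.22 and 0.37.

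Ptch1, receptor and feedback inhibitor, was bright at 1428853_at, with 11.77 and 12.26 in SmoM2 and 12.07 and 11.98 in Sox9cKO. Both Sox9cKO values lay between those of SmoM2. The change at this probe set was 0.0071 (SE 0.19, adjusted p = 0.994). Its 95% interval was -0.44 to 0.45, or at most 1.37-fold in either direction. It turned to -0.24 without SmoM2 replicate 1 and to -0.036 without Sox9cKO replicate 1. The dimmer probe sets read slightly higher without Sox9. The values at 1439663_at were 6.81 and 7.16 against 7.38 and 7.33 (change 0.37, SE 0.16, adjusted p = 0.366), and those at 1450824_at were 5.61 and 5.37 against 5.81 and 5.68 (change 0.26, SE 0.15, adjusted p = 0.531). At these a fall was not seen, and neither difference passed. Their 95% intervals, -0.020 to 0.76 and -0.10 to 0.62, reached further up. Increases of up to 1.69-fold and 1.54-fold lay within them.

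Gli2, the main activator among the Gli factors, measured 10.27 and 10.35 in SmoM2 and 10.48 and 10.98 in Sox9cKO at 1459211_at. The Sox9cKO arrays were higher by 0.42 (SE 0.19, adjusted p = 0.378), a difference carried mostly by Sox9cKO replicate 2, without which it was 0.17. At 1446086_s_at the arrays overlapped, at 8.24 and 8.55 against 8.45 and 8.48 (change 0.070, adjusted p = 0.910). Gli3, which acts mainly as a repressor, was lower at all 3 of its probe sets by 0.17 to 0.31, none of them past the threshold (adjusted p 0.388 to 0.709). Its brightest probe set, 1456067_at, read 8.04 and 8.26 against 7.91 and 8.05, so that the groups overlapped. The groups did not overlap at 1455154_at, with 7.75 and 7.85 against 7.56 and 7.41 (change -0.31, SE 0.14), where the interval was -0.65 to 0.030. The activator and the repressor thus had small changes of opposite sign, neither of them separable from 0.

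Smo, the signal transducer of which SmoM2 is the active form, was higher in the Sox9cKO arrays at all 3 probe sets, none past the threshold. At 1427049_s_at the signal was 10.19 and 10.01 in SmoM2 and 10.55 and 10.38 in Sox9cKO (change 0.36, SE 0.15, adjusted p = 0.324). At 1427048_at it was 9.06 and 8.76 against 9.55 and 9.27 (change 0.50, SE 0.17, adjusted p = 0.226, a 1.41-fold difference). The groups did not overlap at either, and did at the dim 1442215_at, with 5.14 and 4.75 against 5.59 and 5.01 (change 0.35, adjusted p = 0.586). Whether these probe sets read the SmoM2 transcript beside the animal's own Smo is not stated in the labels. Sufu, which holds Gli proteins in the cytoplasm, measured 8.14 and 8.55 against 8.07 and 8.03 at 1450024_at (change -0.30, SE 0.17, adjusted p = 0.524). The remaining Sufu probe sets changed by 0.016 and -0.27 (adjusted p = 0.981 and 0.486), and no Sufu difference passed.

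Boc and Gas1 are cell surface co-receptors that help Ptch1 bind ligand, and Hedgehog signalling is known to lower their transcription in several embryonic tissues. Boc was lower in both Sox9cKO arrays at all 3 probe sets, by 0.22 to 0.38, without passing (adjusted p 0.448 to 0.589). At its brightest, 1427516_a_at, it read 7.62 and 7.77 in SmoM2 and 7.29 and 7.50 in Sox9cKO. The probe sets of Gas1 disagreed. The brightest, 1416855_at, was level at 12.21 and 12.58 against 12.27 and 12.62 (change 0.050, SE 0.19, adjusted p = 0.952). At 1448494_at the signal was 10.67 and 10.82 against 10.15 and 10.34, with the groups apart (change -0.50, SE 0.15, adjusted p = 0.151), and at the dimmer 1456322_at it was 5.51 and 5.72 against 5.84 and 5.73 (change 0.17, adjusted p = 0.709).

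Other genes of the pathway were counted from 5 lists, with 1 probe set per gene (the one of highest mean signal) and a fit over 18193 genes, in which 6.19% were called, 2.66% higher and 3.53% lower. Of 154 measured genes in the lists, 7 rose and 10 fell, which is 11%, with a median log2 change of 0.029 beside 0.021 over all genes. The count of 17 was 11 without SmoM2 replicate 1, without SmoM2 replicate 2 or without Sox9cKO replicate 2. In this fit none of the 9 members was called, and Hhip, read at 1455277_at, had an adjusted p of 0.0698.

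The ligand list was dim. Of 10 measured ligand and ligand-release genes 9 were below the median signal of all genes, 1 rose and 0 fell, with a median change of 0.048. Shh, the ligand of hair follicle placodes, measured 4.79 and 4.68 in SmoM2 and 5.29 and 5.57 in Sox9cKO. It rose by 0.69 (SE 0.15, adjusted p = 0.0451), a call lost with the mean of its probe sets (0.34, adjusted p = 0.206), without either SmoM2 array (adjusted p = 0.143 and 0.205) and without Sox9cKO replicate 2 (adjusted p = 0.190). Dhh changed by -0.66 (adjusted p = 0.0655) and Ihh by 0.21 (adjusted p = 0.518), neither past the threshold.

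Among 8 other receptors and ligand-binding co-receptors, 0 rose and 1 fell, with a median change of -0.14. Gpc6, a glypican, which is a heparan sulphate proteoglycan of the cell surface, measured 6.83 and 7.45 in SmoM2 and 4.24 and 4.15 in Sox9cKO. It fell by 2.95 (SE 0.21, adjusted p = 0.000532), with the groups far apart. Averaging all probe sets of Gpc6 gave -1.64 (adjusted p = 0.00217). Cdon, the co-receptor related to Boc, changed by -0.45 (adjusted p = 0.292) and the glypican Gpc4 by -0.39 (adjusted p = 0.163).

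Of 42 signal transduction genes 1 rose and 1 fell (4.76%, median 0.042), and of 39 cilium genes 1 rose and 0 fell (2.56%, median 0.042), both shares below that of all genes. Arrb1, a beta-arrestin, fell by 1.52 (SE 0.15, adjusted p = 0.00179), from 6.45 and 6.66 to 5.13 and 4.95. Tulp3, which carries receptors into the cilium and restrains the pathway, rose by 0.95 (SE 0.14, adjusted p = 0.00785), from 8.59 and 8.57 to 9.45 and 9.61. Its call was lost with the mean of its probe sets (0.39, adjusted p = 0.122) and without either SmoM2 array (adjusted p = 0.0543 and 0.0616). Gpr161, a ciliary inhibitor of the pathway, changed by -0.63 (adjusted p = 0.114) and the receptor kinase Grk5 by -0.41 (adjusted p = 0.268). Ttbk2, a kinase needed to start a cilium, rose by 0.72 (SE 0.15, adjusted p = 0.0366), but by 0.21 with the mean of its probe sets (adjusted p = 0.428), and its adjusted p was 0.0768 to 0.184 with any 1 array left out. Ift80 changed by 0.54 (adjusted p = 0.0784), or by 0.59 and past the threshold when its probe sets were averaged (adjusted p = 0.0442), and Tctn2 by -0.46 (adjusted p = 0.105).

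The list of genes reported elsewhere as Hedgehog targets moved in both directions. Of 55 measured genes 4 rose and 8 fell (21.8%), with a median change of -0.020. Those that fell included transcription factors and secreted regulators of the hair follicle and skin. Foxc1, a forkhead factor of follicle stem cells, changed by -3.66 (SE 0.27, adjusted p = 0.000583), and Prdm1, a repressor found in differentiating epidermal lineages, by -3.28 (SE 0.21, adjusted p = 0.000446). The Wnt inhibitor Sfrp1 read 7.90 and 8.14 in SmoM2 arrays against 5.89 and 5.43, a change of -2.35 (SE 0.19, adjusted p = 0.000831). Averaging all probe sets of Sfrp1 gave -1.27 (adjusted p = 0.00369). The BMP antagonist Grem1 changed by -1.90 (SE 0.29, adjusted p = 0.0110), the transporter Abcg2 by -1.37 (adjusted p = 0.00190) and Ndp, a ligand of a Frizzled receptor, by -1.24 (adjusted p = 0.00398). These 6 calls held with any 1 array left out.

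The targets that rose were Il1r2, a decoy receptor for interleukin-1, by 2.33 (SE 0.28, adjusted p = 0.00383), the cyclin Ccnd2 by 1.75 (SE 0.15, adjusted p = 0.001), Igfbp3, an insulin-like growth factor binding protein, by 1.60 (adjusted p = 0.0337) and the signal Bmp4 by 1.43 (adjusted p = 0.0220). The calls of Igfbp3 and Bmp4 were lost when single arrays were left out, with adjusted p values up to 0.180 and 0.131, and that of Igfbp3 also when its probe sets were averaged (1.39, adjusted p = 0.0569) and under a robust prior with an intensity trend (adjusted p = 0.0702). The largest changes that did not pass were those of Ptgs2 (-1.74, adjusted p = 0.131) and Fst (-1.09, adjusted p = 0.212). Single arrays moved both widely. The change of Ptgs2 was -0.84 without Sox9cKO replicate 2 and -2.64 without Sox9cKO replicate 1, where it passed (adjusted p = 0.00405). Fst read -1.76 and passed when SmoM2 replicate 1 was left out (adjusted p = 0.0319), against -0.42 when SmoM2 replicate 2 was.

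**Figure D3:**
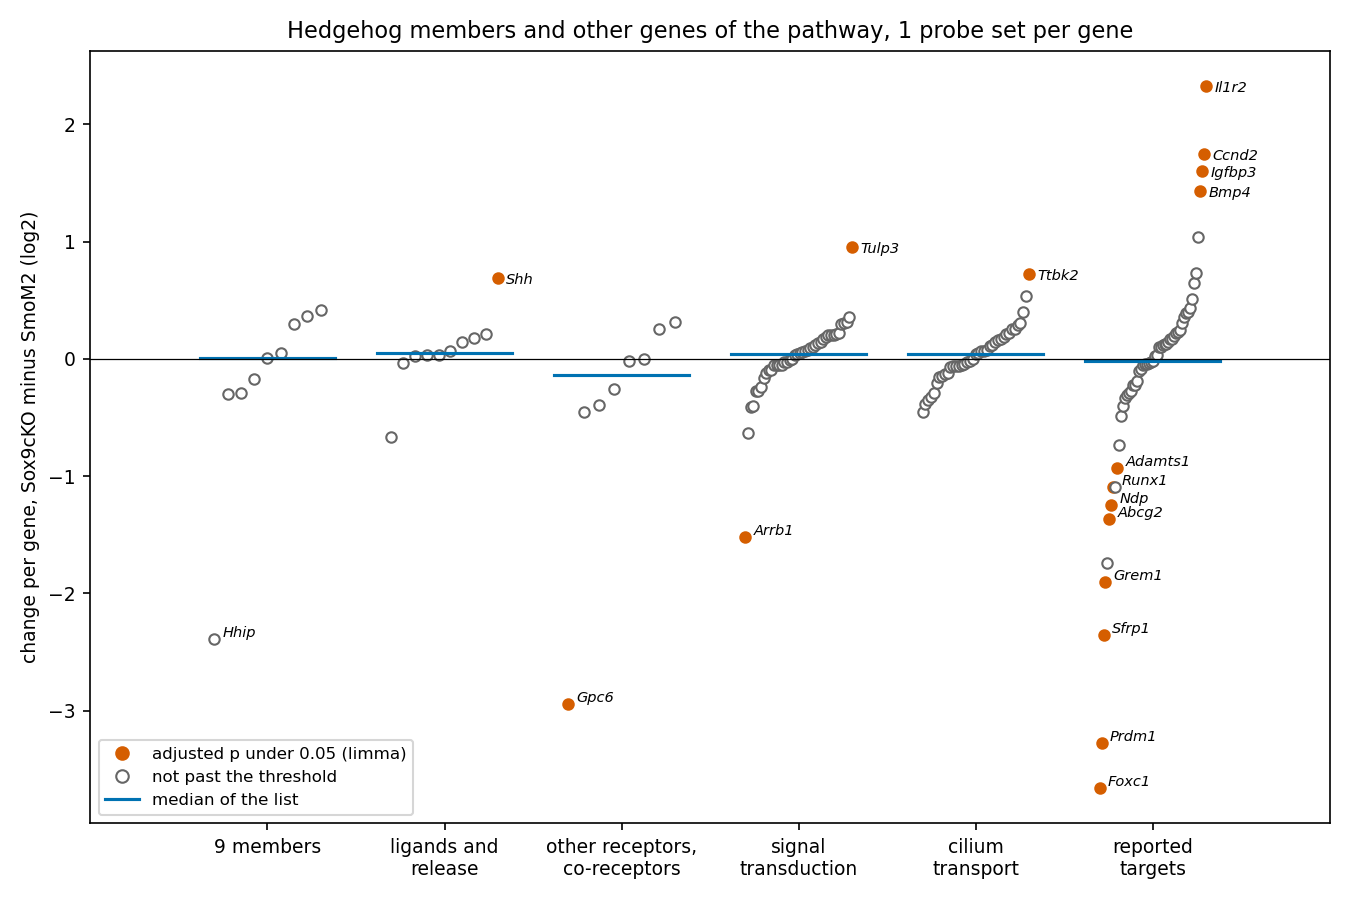
Change per gene as Sox9cKO minus SmoM2 (log2, vertical axis), 1 probe set per gene, for the 9 members and the 5 lists of other pathway genes (horizontal axis, genes ordered by change within each list); filled points passed the limma test and blue lines are list medians. Most genes lie near 0, and the called genes with the largest changes, Foxc1 at -3.66 and Il1r2 at 2.33, are in the list of reported targets.

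The genes whose profile over the 4 arrays was nearest to that of Hhip were found by the Euclidean distance between log2 signals, each centred on its own mean, over 18193 genes with the members left out. Measured from 1438083_at, they were Lifr, a cytokine receptor subunit (distance 0.43), Aldh3a1, an aldehyde dehydrogenase (0.47), and Grem1 (0.47). The signal of Lifr was 9.31 and 9.89 in SmoM2 and 7.34 and 8.03 in Sox9cKO, with replicate 2 the higher in each group as for Hhip. With 4 arrays in 2 groups, such nearness mostly restates a like change between groups and a like gap between replicates.

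**Figure D4:**
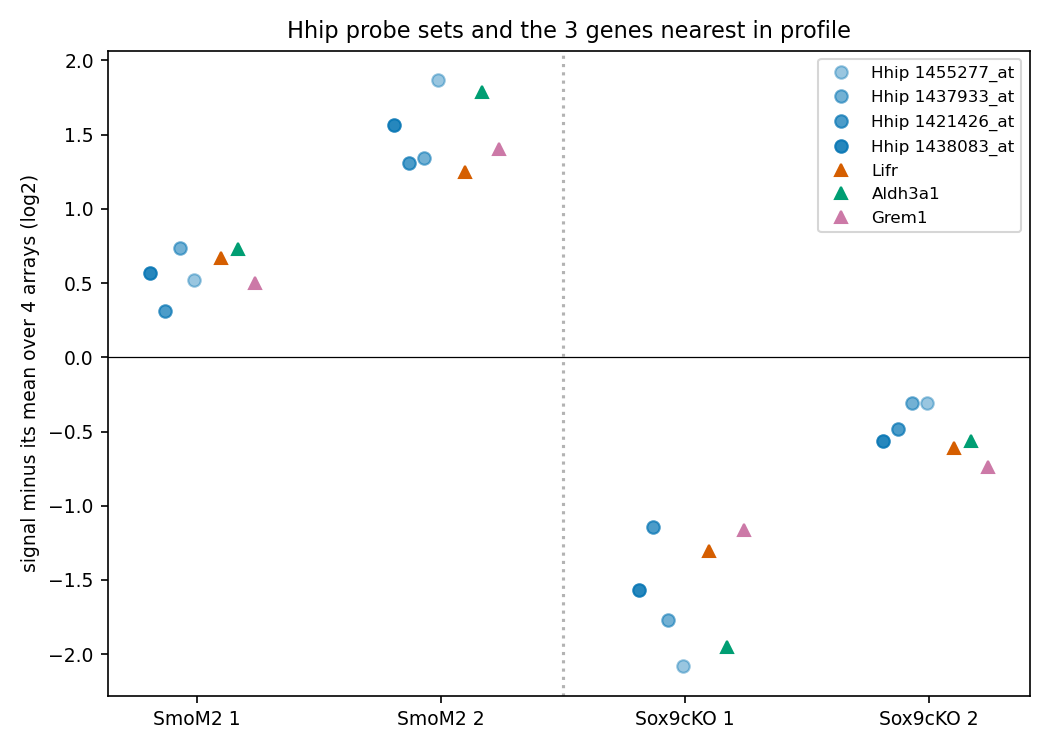
Signal minus its mean over the 4 arrays (log2, vertical axis) for the 4 Hhip probe sets (circles) and the 3 nearest genes (triangles) on each array (horizontal axis). All 7 profiles lie above 0 on both SmoM2 arrays and below 0 on both Sox9cKO arrays, and replicate 2 is the higher one within each group.

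Markers of embryonic hair follicle progenitors, and of other cells that the sort could hold or that also transcribe these genes, moved with the groups to different extents. Bulk RNA does not tell whether a marker was read from other cells or from the basal cells themselves. The lists were chosen with earlier results of these data known, so the shares called in them are not a test. Of 10 embryonic hair follicle progenitor markers 3 rose and 5 fell (80%, beside 6.19% of all genes). Among them were Cux1 (2.65), Ncam1 (-2.30), Wif1 (-3.21) and Tbx1 (-1.03). The summed linear signal of this list was 7228 and 9241 in SmoM2 against 6918 and 5160 in Sox9cKO. Of 10 bulge markers 1 rose and 4 fell, among them Foxc1 (-3.66), Tcf7l2 (-1.20), Tcf7l1 (-1.12) and Lhx2 (0.79). Their sums, in which the brightest markers weigh most, overlapped (11600 and 14330 against 13850 and 13310). Their mean log2 signal was lower in both Sox9cKO arrays (8.75 and 8.88 against 8.26 and 8.11). Dermal papilla cells transcribe Hhip, which stands in their list of 10 markers. Of these 1 rose (Vcan, 1.69) and 2 fell (Sox2, -3.20, and Bmp6, -1.61). Their summed signal with Hhip was 618 and 1006 in SmoM2 and 817 and 588 in Sox9cKO. The other 9 summed to 412 and 483 in SmoM2 and 783.5 and 473 in Sox9cKO. Vcan, at 6.90 and 7.07 against 9.13 and 8.21, was the brightest of them and weighed most in these sums. Prom1 changed by 0.78 (limma, adjusted p = 0.229). The dim markers Corin, Rspo3, Alpl, Crabp1 and Fgf7 stayed between 3.43 and 5.41 on all arrays. Of 10 fibroblast markers only Dcn was called, at 8.85 and 8.70 against 12.09 and 12.78, and the other 9, 8 of them below the median signal, summed to 348 and 329 in SmoM2 and 321 and 352 in Sox9cKO. Suprabasal keratinocyte markers had 3 of 10 higher (sums 42120 and 41200 against 39890 and 55220). Their mean log2 signal was higher in both Sox9cKO arrays (10.46 and 10.27 against 10.89 and 11.27). Sebocyte markers had 3 of 9 lower (sums 9461 and 7040 against 6758 and 6117).

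Markers of Merkel cells, which are epidermal, and of cells from outside the epithelium were mostly dim. For T cells 1 of 9 was called (Thy1, higher), with sums of 331 and 322 in SmoM2 and 418 and 473 in Sox9cKO, and for Langerhans and myeloid cells 1 of 10 (H2-Aa, higher), with sums of 630 and 550 against 762 and 708. For smooth muscle and pericytes 1 of 10 was called (Cspg4, lower; sums 1590 and 1617 against 1176 and 1236), and for Merkel cells 1 of 10 (Sox2 again; sums 446 and 450 against 450 and 332). None was called among 10 melanocyte markers (sums 712 and 687 against 764 and 983) or 10 endothelial markers (sums 348 and 381 against 412 and 434), in the limma fit in which 6.19% of genes were called. What part other cells had in the Hhip difference was not tested.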

How the data were processed

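Per the labels' protocols, biotin-labelled material amplified from 100 ng of total RNA was hybridised to each Affymetrix 3' array. The authors deposited a table of log2 signals with a row for each probe set and a column for each array. The labels do not state how they were normalized and summarised. The submitters' processing notes name R 2.14.0. The scale was inferred from the values, which run as log2 signals do. Normalization may have taken out any change common to most genes.

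All 45037 probe sets that are not controls were compared between groups (Sox9cKO minus SmoM2) with limma 3.58.1 in R 4.3.3 (lmFit, eBayes, no covariate, two-sided, 6.99 degrees of freedom per test with the prior), adjusted by Benjamini-Hochberg over all of them, with a threshold of 0.05. For gene lists, the probe set of highest mean stood for each of 18193 genes in a separate fit. The number of arrays limits the precision. Members were matched by annotation symbol, and none of their probe sets carried several symbols. Entrez IDs gave current symbols for 34754 probe sets.

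The members and lists were chosen with earlier results of these data known. Named are all member and Sox9 probe sets, called genes of each list (at most 6 in each direction by size) and its 2 largest changes not called, the 3 genes nearest to a called member, and up to 4 called markers per list. Outside this rule, the uncalled markers Krt5, Cd34, Postn, Krt15, Lgr5, Prom1, Corin, Rspo3, Alpl, Crabp1 and Fgf7 were named after their values were seen. The procedure was run on simulated data drawn independently from the variance model of the fit itself. That run cannot show how well the model holds for these arrays. Alternatives were 2 other normalizations, omission of dim probe sets, an intensity trend with robust prior, other summaries per gene, a replicate block and each array left out.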

Additional observations from a re-analysis of the deposited data

How the results depend on the processing

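The count of 1 called member probe set stayed 1 with quantile normalization, with median centring and with dim probe sets left out. In the last of these Hhip 1438083_at was kept by a narrow margin, at a mean of 5.473 against a cut of 5.465. It was 0 with an intensity trend and robust prior, 0 among the 9 genes with the probe set of highest mean, 0 with probe sets averaged per gene, and 0 to 3 with 1 array left out. All probe sets called numbered 1720, or 1126 and 1015 with those summaries per gene (fewer features tested) and 1021 to 1142 with 1 array left out. The 17 called list genes became 10 with dim genes left out and 11 to 19 with 1 array left out, and all genes called, 1126, became 534 to 900. With 1 array left out, the spread of the remaining pair stood for both groups.

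Replicate numbers are shared by the groups, but no label says that they pair the arrays, and deviations of same-numbered arrays correlated at 0.121 across probe sets. The labelling controls did differ by replicate number. So did the 3' minus 5' difference of the Actb control probe sets, at 0.74 and 0.75 in replicate 1 of the groups and 0.46 and 0.52 in replicate 2. All Hhip probe sets read higher in replicate 2 of each group. With the replicate block 4 member probe sets were called, all of Hhip, and 3474 probe sets, 1919 genes and 26 list genes in all.

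The reversed single values were all of changes near 0. With 1 array left out, Gli2 1446086_s_at ran from -0.083 (without SmoM2 replicate 1) to 0.22, Ptch1 1428853_at from -0.24 (without SmoM2 replicate 1; -0.036 without Sox9cKO replicate 1) to 0.25, Sufu 1431713_at from -0.11 (without SmoM2 replicate 1; -0.073 without Sox9cKO replicate 2) to 0.15, and Gas1 1416855_at from -0.13 (without SmoM2 replicate 1 or Sox9cKO replicate 2) to 0.23. With probe sets averaged per gene, Sufu was at -0.18 and Gas1 at -0.093, against positive values at Sufu 1431713_at, Gas1 1416855_at and Gas1 1456322_at. The cause was not tested. Outside Hhip, no member probe set passed the threshold under any alternative.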
